A study of Bos taurus with 8 samples.

Results

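Transcripts of 8 genes that carry calcium, magnesium and ammonium across epithelial membranes were followed in the rumen epithelium of cattle fed a high-grain diet with and without wood kraft pulp (WP), which is mostly cellulose. They are the channels TRPV3, TRPV6, TRPM6 and TRPM7, the magnesium carrier SLC41A1, the intracellular calcium buffer S100G and the plasma membrane calcium pumps ATP2B1 and ATP2B4. Members were taken by the gene name printed on the array: all 8 were found, each with 1 probe, among 15008 probes. The comparison asks whether these transcripts differ when part of the corn is replaced with fibre. The samples were 8 single-colour arrays of total RNA, 1 for each of 4 Holstein bull calves (numbers 21, 23, 24 and 25) on each diet. The series text describes 5 bulls with a rumen fistula, aged 7.4 ± 0.3 months, that went through both diets in turn for 14 days each, with no interval between them. The control diet was high-grain with corn flakes, and on the WP diet the pulp stood in for 50% of those flakes. All 4 calves were thus on a high-grain ration throughout, which diet each calf received first is unknown here, and the fifth animal was not analysed here.

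The forestomach wall is the main site of magnesium uptake in ruminants. It also takes up calcium, and ammonia and ammonium from protein breakdown leave the rumen through it. In the textbook account cations enter the luminal cell layers through channels of the TRP family, are buffered or carried through the cell, and leave on the blood side through pumps and sodium-coupled exchangers. TRPM6 and TRPM7 pass magnesium, TRPV6 is selective for calcium, and TRPV3 is a less selective channel of keratinocytes that in cattle has been described to pass calcium and ammonium.

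What the array can see of each gene is set by 1 designed oligonucleotide of 60 bases. The opening 30 bases of each are shown because every value below rests on that single probe, and because they identify that probe. They are written in lower case, 5′ to 3′, from the array design:
TRPV3: cgtttgagtatacgtgttgtcagctttgtc
TRPV6: tctgccaagtgtaacgaactcctccaaggg
TRPM6: cttgcccaaggacttccctgttgtttgatt
TRPM7: gaaaaagcacagtgttgtaaatacacttag
SLC41A1: agacacagatgtcggggactagcccggtca
S100G: gggaaattctttcgaaactaaactttctcc
ATP2B1: ataagtcgacctgtggatcatcagtagaac
ATP2B4: tcctaactggacttggatattaaggaacag
On the design's build, UMD 3.1, the probes lie at chr19:24861106-24861165 (TRPV3, minus strand), chr4:107013669-107013728 (TRPV6, minus), chr8:51119908-51119967 (TRPM6, minus) and chr10:59915158-59915217 (TRPM7, plus). Those of SLC41A1 and ATP2B4 are both on chromosome 16, at chr16:3367802-3367861 (minus) and chr16:1314313-1314372 (plus), and that of ATP2B1 is at chr5:19539973-19540032 (minus). The S100G probe comes from an expressed sequence tag that the design leaves unmapped. The exon or untranslated region under each probe, and whether a probe matches other genes, were not analysed here. Probe GC content ran from 35% (TRPV3 and S100G) to 55% (TRPV6 and SLC41A1), which spans the 5th to the 95th percentile of all probes on the array.

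The members fell into those with a clear signal and those without. TRPM7, SLC41A1 and ATP2B1 were well above background on all 8 arrays, TRPM6 on 7 and TRPV3 on 6. ATP2B4 was above background on 1 array, and TRPV6 and S100G on none. The 5 genes of the first set passed the filter for testing (above background on at least 4 of 8 arrays), as did 10236 of all 15008 probes (68.2%). A level below is log2 of the background-corrected signal minus the 75th percentile of the same array, and no level is set against that of another probe.

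In limma 0 of the 10236 tested probes (0%) had an adjusted p under 0.05, and 715 (6.99%) had an unadjusted p under 0.05, of which 536 were higher and 179 lower on WP. With quantile scaling these were 192 and 336, and the median difference of all probes went from 0.09 to -0.02 log2. Each array detected 9314 to 11917 probes. The WP array of calf 24 stood apart: its negative control spots had a median signal of 4.06 against 1.20 to 1.90 on the others, and its dimmest probe called above background read 16.9 against 4.93 to 8.0. Of 1851 probes above background on a single array, 1461 (78.9%) were above it on that array. Markers of keratinocytes were well measured, with 7 of 7 basal and 5 of 5 rumen function genes tested, and so were 7 of 8 fibroblast, 7 of 8 endothelial, 4 of 6 smooth muscle and 5 of 8 leukocyte genes. In such mixed tissue fewer cells of a type and less RNA per cell cannot be told apart.

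**Figure D1:**
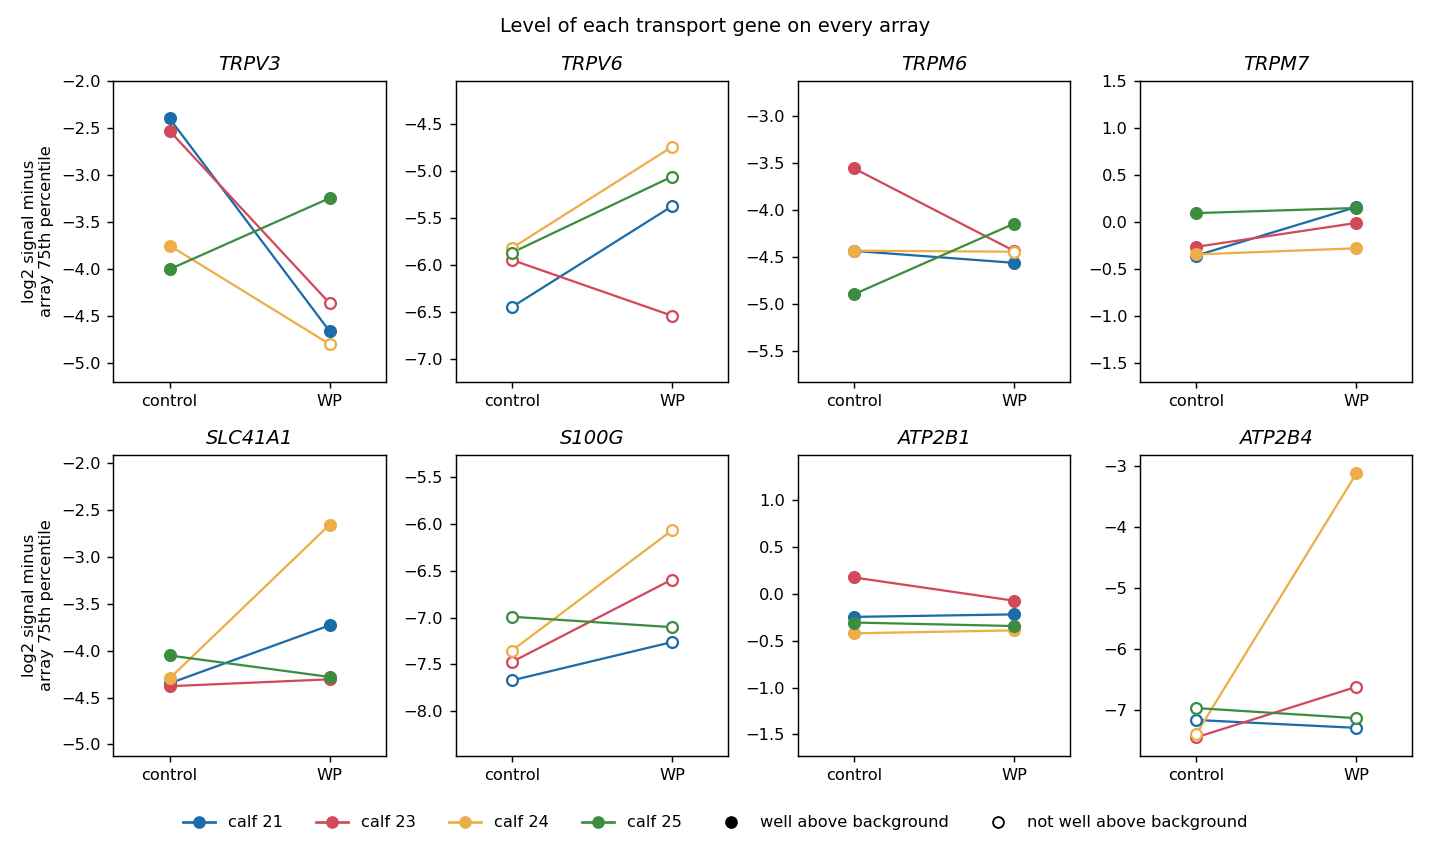
Level of each of the 8 genes on the control and WP arrays, as log2 signal minus the array's 75th percentile, with a line joining the 2 arrays of a calf. Filled points are well above background and open points are not; each panel has its own scale, TRPV6 and S100G have open points only, and ATP2B4 has 1 filled point, on the WP array of calf 24.

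The TRP channels are the entry step. TRPV3, a channel of keratinocytes that opens to warmth and to plant compounds, had levels of -2.39, -2.53, -3.75 and -4.00 on the control arrays of calves 21, 23, 24 and 25. On WP its levels were -4.66, -4.36, -4.80 and -3.24 in the same calves. The 2 brightest arrays were the control arrays of calves 21 and 23, the WP array of calf 25 lay above the control arrays of calves 24 and 25, and the diets overlapped.

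In signal units TRPV3 read 61.4 and 49.9 on the control arrays of calves 21 and 23, with scanner errors of 6.40 and 5.32, and 7.86 and 9.79 on their WP arrays, with errors of 1.55 and 2.39. In calf 24 the signal was 21.0 on control and 10.2 on WP, with errors of 2.75 and 4.77, and in calf 25 it was 13.2 on control and 24.8 on WP, with errors of 2.22 and 3.09. These errors are those of 1 spot on 1 array and hold no spread between arrays or calves.

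TRPV3 was well above background on 4 control arrays but on 2 WP arrays, those of calves 21 and 25, so the WP level of calves 23 and 24 is not set, and the 4 control arrays alone were enough for the probe to pass the filter for testing. With those spots taken at the signal read, the within-calf differences, WP minus control, were -2.27, -1.84, -1.05 and 0.76 log2 in calves 21, 23, 24 and 25. Their mean was -1.10 ± 1.34 (SD, n = 4), which is not an exact size for that reason, and this did not pass the test (limma adjusted p = 0.658, unadjusted p = 0.0858). The 95% interval of the WP over control ratio ran from 0.187 to 1.17. TRPV3 was lower on WP in 3 of 4 calves, as were at least 3 of 4 differences for 22.5% of probes. With normexp background correction the mean difference was -0.10 and without calf 21 it was -0.71, and without calf 25 it was -1.72 (limma adjusted p = 0.537).

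The arrays lay in 2 rows of 1 slide, and the row of the WP array differed between calves (row 1 for calves 21 and 23, row 2 for calves 24 and 25). TRPV3 was higher on the array in row 2 in 3 of 4 calves, by 0.95 log2 with calf and diet in the fit (limma unadjusted p = 0.0487, adjusted p = 0.385), where 12.9% of probes had an unadjusted p under 0.05 for row. Within row 1 alone the diet difference was -0.64, and within row 2 it was -1.56. Whether the rows follow the diet order is not stated in the labels.

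Markers of the outer, differentiated layers of the epithelium stand beside TRPV3 because some of them varied with it, while others did not. Among 8 tested suprabasal and cornified markers of 9 listed (KRT1 has no probe under that name), 7 had negative differences, beside 35.6% of all probes. This count leans on calf 24. Without that calf DSG1 turned from -0.35 to 0.77 and SBSN from -0.93 to 0.10, and KRTDAP went from -1.09 to -0.26. IVL (-1.14), SPINK5 (-0.69), TGM1 (-1.29) and CNFN (-0.63) stayed negative without it. Of the 8, 0 passed the adjusted threshold, and 2 had an unadjusted p under 0.05 in limma (IVL and SPINK5), beside 6.99% of all probes. None of the 8 was without signal, though SBSN and KRTDAP were each above background on 3 of 4 WP arrays. The mean level of the list ran from -0.36 to 0.73 on control arrays and from -1.22 to 0.60 on WP arrays.

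IVL, which encodes the cornified envelope precursor involucrin, differed by -2.03, -1.62, -0.87 and 0.24 log2 in calves 21, 23, 24 and 25. TGM1, the transglutaminase that cross-links that envelope, differed by -2.59, -1.75, -0.25 and 0.48. Both thus ordered the 4 calves as TRPV3 did, a likeness noticed after the values were seen. Like TRPV3, both were higher in slide row 2 with calf and diet in the fit. The row difference was 0.75 log2 for IVL (limma unadjusted p = 0.0300, adjusted p = 0.353) and 1.14 for TGM1 (limma unadjusted p = 0.00633, adjusted p = 0.298). The order also parts calves 21 and 23 from calves 24 and 25, as the rows of the WP arrays do. The part of the row in this likeness was not tested. SPINK5, a protease inhibitor of these layers, had differences of -0.52, -1.32, -1.69 and -0.23 (limma unadjusted p = 0.0190, adjusted p = 0.658), with the calves in another order. DSG1, a desmosomal cadherin of the same layers, also ordered them otherwise, with 1.83, 1.28, -3.70 and -0.80. KRT10, a keratin of these layers, was the 1 marker of the 8 with a positive mean difference, with 1.14, 0.37, -0.02 and 0.51. The median of the 8 markers was -1.25, 0.13, -1.28 and -0.0017 in the 4 calves, so it did not order them as TRPV3 did. Of 7 tested basal keratinocyte markers 5 had positive differences (median 0.25 log2) and 0 passed the adjusted threshold. Their medians by calf were 0.73, 0.36, -0.18 and -0.53, the reverse of the TRPV3 order. Markers of the tissue below the epithelium had mostly positive differences, as had most probes (35.6% of all probes were negative, with a median of 0.09 log2). Positive differences were found for 6 of 7 tested fibroblast genes (median 0.66 log2), 7 of 7 endothelial (0.40), 4 of 4 smooth muscle (0.42) and 3 of 5 leukocyte genes (0.20), beside a median of -0.93 for the suprabasal list, and 0 of them passed the adjusted threshold. The mean level of the fibroblast list ran from -0.57 to 0.64 on control arrays and from 0.18 to 0.98 on WP arrays, that of the endothelial list from -2.45 to -1.24 and from -1.74 to -0.80, that of the smooth muscle list from -0.51 to -0.15 and from -0.34 to 0.52, and that of the leukocyte list from -1.54 to -0.10 and from -1.15 to -0.37. The part of any of these cell types in the TRPV3 values was not tested.

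**Figure D2:**
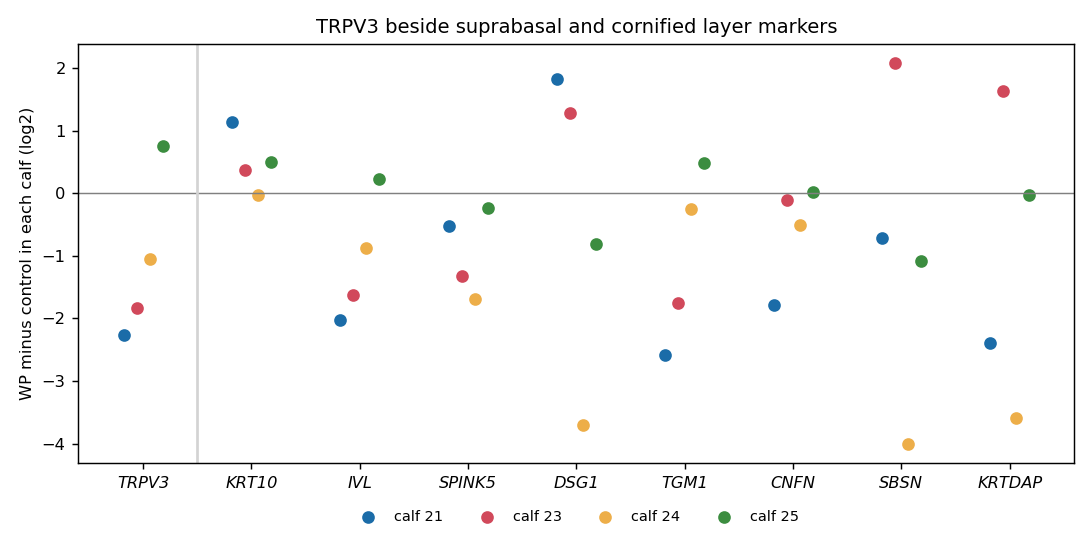
Within-calf difference (WP minus control, log2) of TRPV3 and of the 8 tested suprabasal and cornified layer markers, 1 point per calf. IVL and TGM1 show the calves in the order seen for TRPV3, from -2.27 in calf 21 to 0.76 in calf 25, while the other markers do not.

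TRPM6, a magnesium channel fused to a kinase, was a dim probe whose levels spanned 1.34 log2 over the 8 arrays. Its levels were -4.43, -3.55, -4.43 and -4.89 on control and -4.56, -4.43, -4.44 and -4.14 on WP in calves 21, 23, 24 and 25. The control arrays spanned the whole range, with the highest value in calf 23 and the lowest in calf 25, and the WP arrays lay between them. It was above background on 3 of 4 WP arrays, not on that of calf 24.

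For TRPM6 the within-calf differences were -0.13, -0.88, -0.01 and 0.75, with a mean of -0.07 ± 0.67 (SD, n = 4). The test was not passed (limma adjusted p = 0.943), and the 95% interval of the WP over control ratio, 0.588 to 1.55, lay on both sides of no change. The sign followed the processing: the mean was 0.15 with normexp, 0.20 without calf 23 and 0.17 within slide row 1, but -0.81 with quantile scaling. TRPM6 was higher in slide row 2 by 0.44 log2 (limma unadjusted p = 0.108).

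TRPM7, the ubiquitous relative of TRPM6 that also joins a magnesium and calcium channel to a kinase, gave a clear signal of 200.2 to 260 on all 8 arrays. On control its levels were -0.36, -0.26, -0.34 and 0.10, and on WP 0.16, -0.01, -0.28 and 0.15 in calves 21, 23, 24 and 25. TRPM7 was higher on WP in 4 of 4 calves, by 0.52, 0.25, 0.07 and 0.05 log2, though the diets overlapped. The control level of calf 25 lay above the WP levels of calves 23 and 24. The WP level of calf 24 also lay below the control level of calf 23. Of all probes, 12% were higher on WP in 4 of 4 calves.

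The mean TRPM7 difference was 0.22 ± 0.22 (SD, n = 4), a ratio of 1.17 with a 95% interval of 0.920 to 1.48. It lay 0.14 above the median of all probes and was not called (limma adjusted p = 0.667, unadjusted p = 0.158). Its value ranged from 0.12 to 0.28 over the 15 alternatives, several of which cannot alter it, the lowest being that without calf 21. It was 0.20 within slide row 1 and 0.25 within row 2. A rise of over 1.48-fold thus lies outside this interval.

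TRPV6, the calcium-selective channel of intestine and kidney, was not well above background on any array. Its signal read 3.70, 4.68, 5.0 and 3.62 on control and 4.81, 2.17, 10.7 and 7.04 on WP in calves 21, 23, 24 and 25. The highest value, 10.7, was on the WP array of calf 24, where probes had to read at least 16.9 to be called. No difference is given, since no spot was well above background and the level is thus not set on either diet. Its relative TRPV5 was above background on 1 of 8 arrays, so the pair of calcium-selective TRP channels was not measurable here at the sensitivity of these probes.

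Beyond entry, the magnesium carrier SLC41A1, which exchanges magnesium for sodium at the cell surface, was dim but above background on all 8 arrays. Control levels were -4.35, -4.38, -4.30 and -4.05 in calves 21, 23, 24 and 25, and WP levels -3.73, -4.31, -2.66 and -4.28. The 4 control arrays lay close together, and the WP array of calf 24 was far above every other array, at a signal of 45.1 against 10.2 to 15.8. That is the array with raised control spots, and the part of this in the SLC41A1 value was not tested. TRPV6, S100G and ATP2B4 also had their highest signal on that array, while TRPV3 and TRPM6 did not. Of these only ATP2B4 was above background there.

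SLC41A1 differed by 0.62, 0.07, 1.64 and -0.23 log2 in the 4 calves, with a mean of 0.53 ± 0.82 (SD, n = 4). It was not called (limma adjusted p = 0.667), and the 95% interval of the ratio was 0.805 to 2.57. Without calf 24 the mean was 0.15 (limma adjusted p = 0.868), and with quantile and cyclic loess scaling it was 0.12 and 0.11. Within slide row 1 it was 0.16.

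S100G encodes calbindin-D9k, the small buffer that ferries calcium through intestinal cells. It was not well above background on any array, with signals of 1.58, 1.62, 1.72 and 1.66 on control and 1.30, 2.08, 4.24 and 1.70 on WP. On all 8 arrays the scanner software had set a surrogate value, which tracks the noise of the array and not the transcript. CALB1, the larger calbindin, was above background on 0 of 8 arrays as well. Neither buffer was thus detectable with these probes.

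At the exit step ATP2B1, the plasma membrane calcium pump PMCA1, gave a clear signal on all 8 arrays. Its levels were -0.25, 0.17, -0.42 and -0.31 on control and -0.22, -0.08, -0.39 and -0.35 on WP in calves 21, 23, 24 and 25, from signals of 171 to 324. Calf 23 was the highest on both diets and calf 24 the lowest on both, and the diets overlapped. The 4 differences were 0.03, -0.25, 0.03 and -0.04 log2.

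The mean for ATP2B1 was -0.06 ± 0.13 (SD, n = 4), with a ratio of 0.961 and a 95% interval of 0.781 to 1.18 (limma adjusted p = 0.884). Its interval was the narrowest of the 5 tested members, and a change beyond 1.18-fold up, or below 0.781 of control, lies outside it. The sign turned to 0.0069 without calf 23 and to 0.22 within slide row 1, against -0.33 within row 2.

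ATP2B4, the pump PMCA4, was not well above background on 7 of 8 arrays, where its signal was 1.27 to 2.24. The exception was the WP array of calf 24, at 32.7 with a scanner error of 5.29. That array also held 78.9% of all probes seen above background once, and a single array in a group gives no diet difference. No lower bound on a fold can be given for ATP2B4, since its mean over the 4 WP arrays did not exceed the detection limit of the control arrays.

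**Figure D3:**
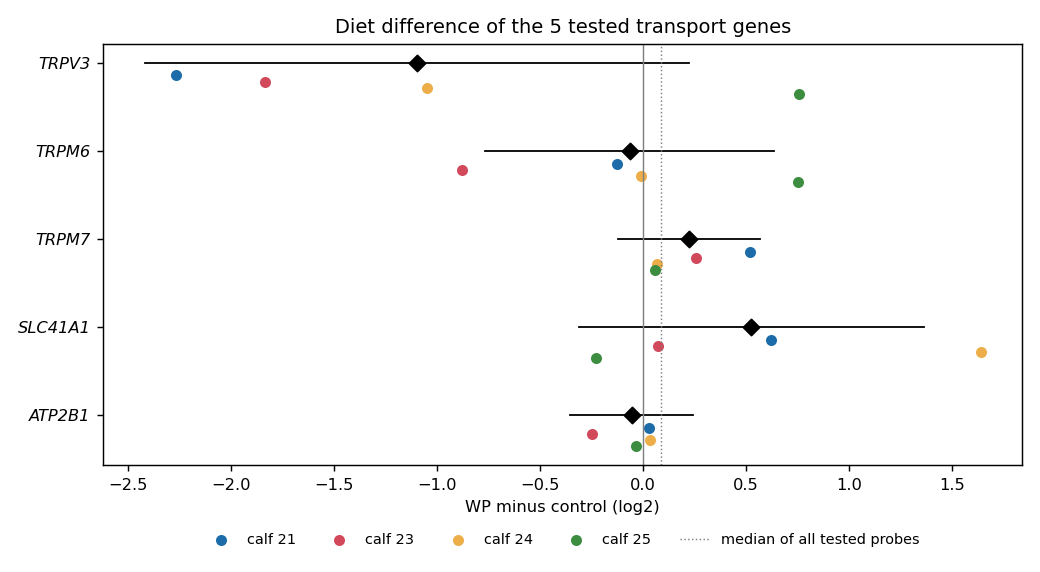
WP minus control (log2) of the 5 tested genes: coloured points are the 4 calves, the diamond is the mean and the line its 95% interval from limma, and the dotted line is the median of all tested probes at 0.09. All 5 intervals include 0, that of ATP2B1 is the narrowest (-0.36 to 0.24) and that of TRPV3 the widest (-2.42 to 0.22).

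Taking the 5 tested members as a group, 0 passed the adjusted threshold, against 0% of all probes, and 0 had an unadjusted p under 0.05, against 6.99%. TRPV3, TRPM6 and ATP2B1 had negative differences and TRPM7 and SLC41A1 positive ones. Their median was -0.06 log2, beside 0.09 for all probes, and 35.6% of all probes were negative. In none of the 5 did the diets separate without overlap, which 4.86% of all probes did.

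The other genes of these pathways made up 5 lists of 75 genes, chosen with earlier results of these data known. Of the 75, 65 have a probe, 39 were tested and 13 were above background on no array. Of the 39 tested, 0 passed the adjusted threshold in either direction, against 0% of all probes. An unadjusted p under 0.05 in limma was found for 2, both with positive differences, against 6.99% of all probes. With the main scaling 26 were positive and 13 negative with a median of 0.11 log2, near all probes, of which 35.6% were negative with a median of 0.09. Quantile scaling gave 25 negative, cyclic loess scaling 26 and the fit without calf 24 20.

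Among the 7 tested calcium entry genes 5 were positive. TRPV4, a relative of TRPV3 that senses swelling of cells, gave -0.02 ± 0.19 (SE of the fit) but 0.17 with normexp, and TRPM4, a sodium channel opened by calcium, 0.15 ± 0.17 but -0.22 with quantile scaling. ORAI1, the pore of store-operated calcium entry, gave 0.11 ± 0.12, and STIM1, its sensor in the endoplasmic reticulum, -0.11 ± 0.15. TRPA1, a channel opened by irritants, was above background on 4 WP and 2 control arrays, so its level is not set on the other control arrays. The 4 WP arrays alone were enough for the probe to pass the filter for testing. With those spots taken at the signal read its differences were -0.28, 3.22, 0.38 and 1.11 in calves 21, 23, 24 and 25 and the fit gave 1.11 ± 0.59 (limma adjusted p = 0.659), against 0.30 with normexp, 0.28 with quantile and 0.54 with cyclic loess processing.

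In the calcium buffering and vitamin D list 5 of 14 genes were tested, 2 positive and 3 negative. VDR, the vitamin D receptor that in intestine drives TRPV6 and S100G, was above background on all 8 arrays and gave 0.09 ± 0.32, but -0.09 with quantile and with cyclic loess scaling. PTH1R, the receptor of parathyroid hormone, was above background on 3 WP and 4 control arrays, so its level is not set on the other WP array. With that spot taken at the signal read, it was higher on WP in 4 of 4 calves by 0.89, 0.62, 0.29 and 0.21, as were 12% of all probes. The fit gave 0.50 ± 0.16 (limma unadjusted p = 0.0251, adjusted p = 0.658), against -0.29 with quantile scaling. CYP24A1, the enzyme that degrades vitamin D, has no probe under that name.

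Of 17 genes for calcium pumps, exchangers and stores 10 were tested, 8 positive and 2 negative. ITPR1, a calcium release channel of the endoplasmic reticulum, was higher on WP in 4 of 4 calves by 0.19, 0.53, 0.48 and 0.26, as were 12% of all probes. ITPR1 gave 0.37 ± 0.12 (limma unadjusted p = 0.0307, adjusted p = 0.658). It kept a positive sign with normexp (0.24), quantile (0.07) and cyclic loess (0.16) processing. ATP2C2, a calcium and manganese pump of the secretory pathway, gave 0.29 ± 0.16, and ATP2A2, the pump that refills the endoplasmic reticulum, 0.09 ± 0.12, but -0.14 with quantile scaling. SLC8A1, the sodium and calcium exchanger, gave 0.39 ± 0.57 and ranged from -1.53 in calf 21 to 1.80 in calf 25, and turned to -0.31 with quantile and -0.12 with cyclic loess scaling.

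Among the 10 tested magnesium genes 6 were positive. SLC41A2, a relative of SLC41A1, was above background on 3 WP and 2 control arrays, so its level is not set on the others. With those spots taken at the signal read, SLC41A2 gave 0.94 ± 0.39 (limma adjusted p = 0.658). It was 0.53 without calf 24, 0.36 with normexp, 0.37 with quantile and 0.34 with cyclic loess processing. CNNM4, which extrudes magnesium on the blood side of intestinal cells, gave 0.62 ± 0.34, with 1.13, -0.46, 1.45 and 0.34 in calves 21, 23, 24 and 25, and was 0.22 with cyclic loess scaling. MRS2, the magnesium channel of mitochondria, gave 0.27 ± 0.21, NIPAL3 0.39 ± 0.21 (0.0073 with quantile scaling) and NIPA2, a magnesium carrier of the cell surface, -0.11 ± 0.11. CNNM3 was above background on 1 array, and SLC41A3 and MAGT1 have no probe under their names.

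The ammonium list held the Rhesus glycoproteins RHBG and RHCG, which pass ammonia, and both were above background on all 8 arrays. RHBG gave 0.23 ± 0.17 and RHCG -0.25 ± 0.17 (limma adjusted p = 0.679 and 0.676), RHCG being -0.03 with normexp. By calf RHBG differed by 0.55, 0.32, 0.30 and -0.25 and RHCG by -0.26, -0.70, 0.12 and -0.15 in calves 21, 23, 24 and 25, so the signs were opposite in calves 21 and 23 and alike in calves 24 and 25. GLUL, which fixes ammonium into glutamine, gave 0.30 ± 0.15, and ASNS, the asparagine synthetase, -0.33 ± 0.19. In this list 7 of 10 genes were tested, 5 positive and 2 negative, and 0 had an unadjusted p under 0.05.

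**Figure D4:**
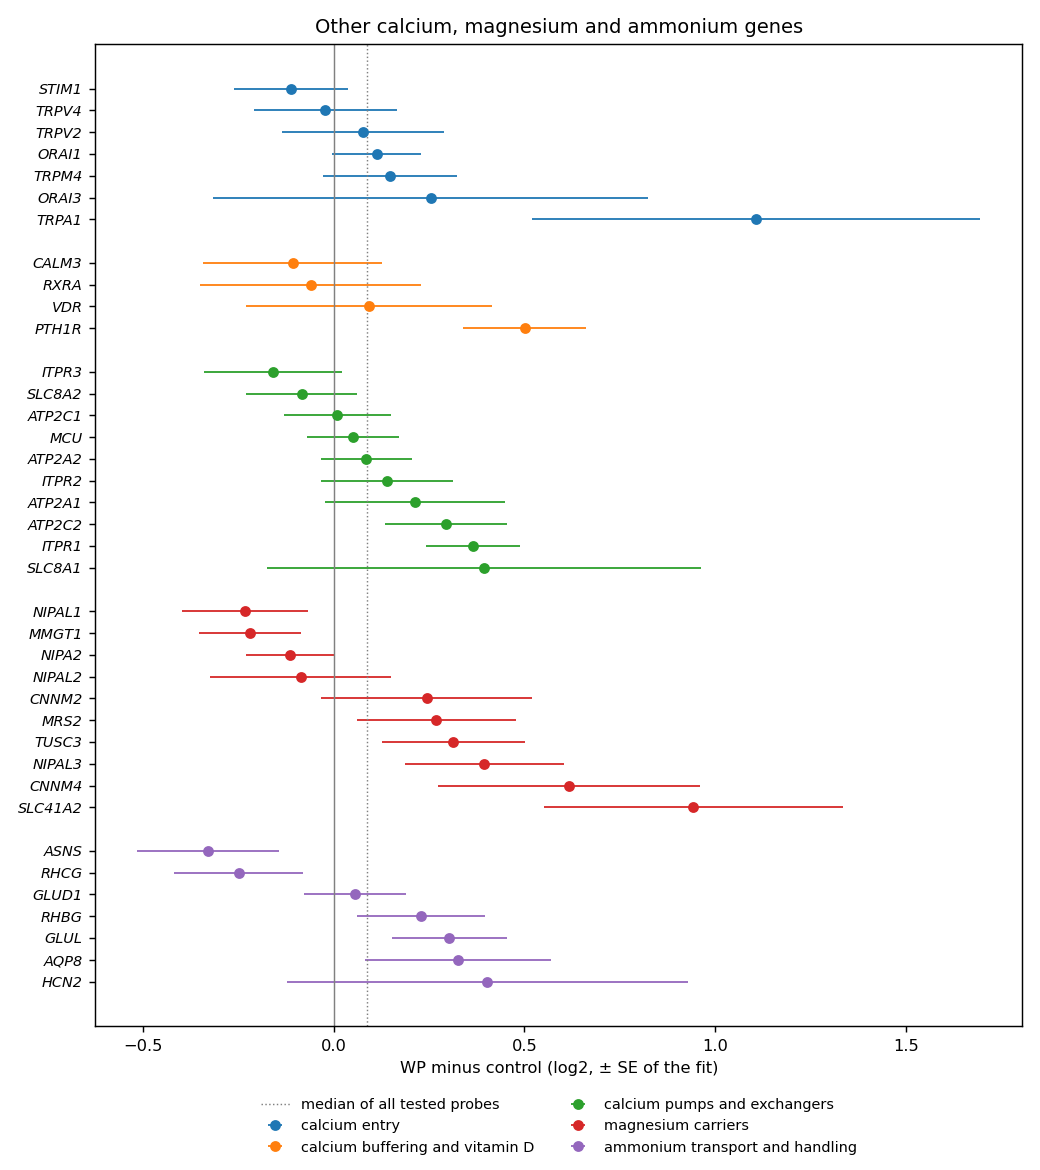
WP minus control (log2, with the SE of the limma fit) of the tested genes of the 5 lists of other calcium, magnesium and ammonium genes; 1 of the 39 is left out. The dotted line is the median of all tested probes at 0.09; TRPA1 (1.11) and SLC41A2 (0.94) lie farthest to the right with wide errors, each with control spots not above background, and ASNS (-0.33) farthest to the left.

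For the 2 members with the largest range among those above background on all 8 arrays, the named genes of most similar profile were sought among 9858. Likeness was the mean absolute difference of the log2 profiles over the 8 arrays, each centred on its own mean. For SLC41A1, whose range was 1.72 log2, these were DDI2 (0.08), HNRNPUL1 (0.09) and ROBO4 (0.09), against a median of 0.42 over all genes compared. That range rests on the WP array of calf 24, which has raised control spots. SLC41A1 was at -2.66 there and from -4.38 to -3.73 on the other arrays, so a similar profile must share that high value. For ATP2B1, whose range was 0.59, they were WDR45 (0.05), TICAM2 (0.05) and TREML1 (0.06), against a median of 0.27. The profiles share the 8 arrays and their scaling, and the best of so many genes is close by selection.

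**Figure D5:**
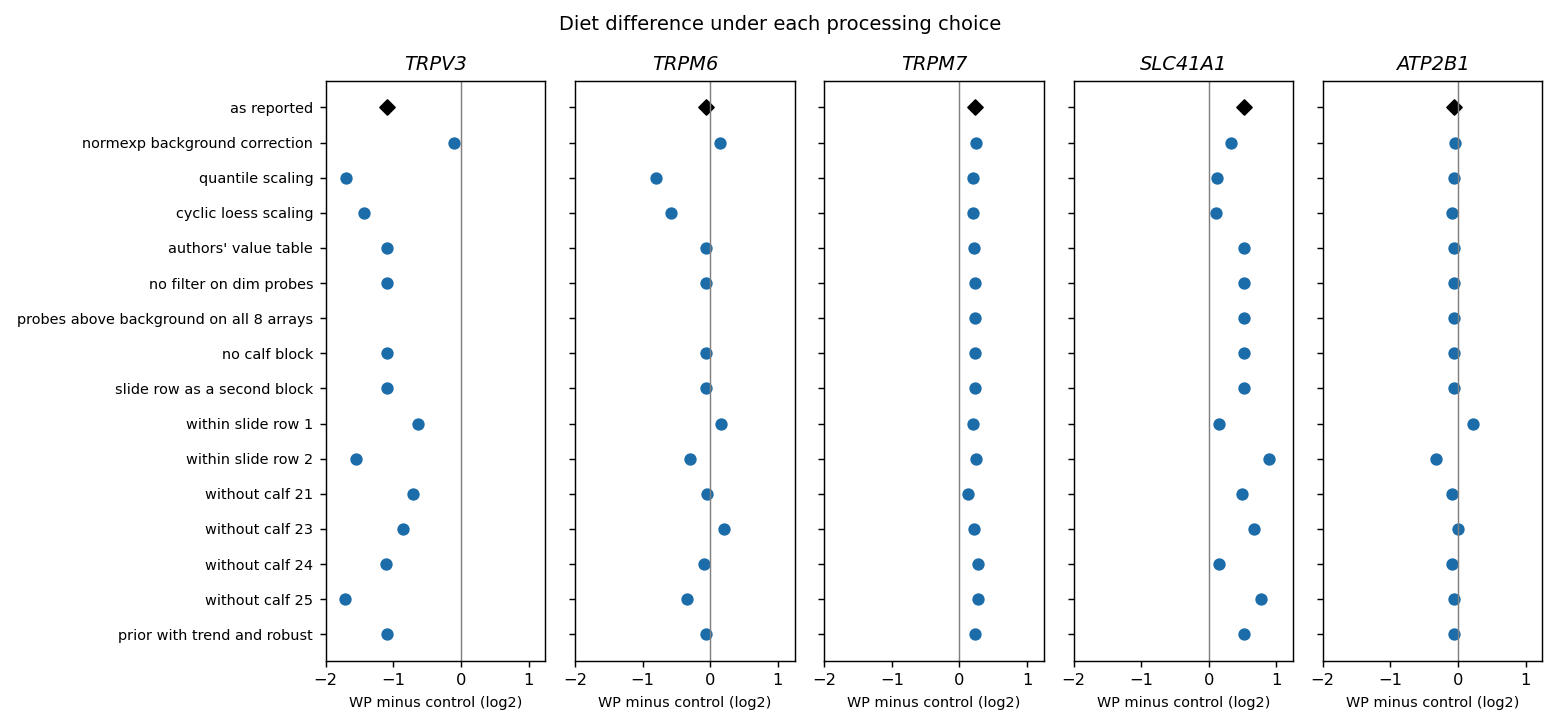
WP minus control (log2) of the 5 tested genes as reported (black diamond) and under each alternative (blue points), where a calf left out loses both its arrays. TRPV3 stays below 0 and TRPM7 and SLC41A1 above it in every setting shown, TRPM6 and ATP2B1 lie on both sides, and no value passed the adjusted threshold. The settings for the filter, the blocks and the prior leave each difference as reported by construction.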

How the data were processed

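Single-colour Agilent arrays measured 8 samples: per the labels' protocols, 500 ng of total RNA was amplified and labelled with Cy3. The deposited scanner files hold spot intensity, which the scanner software had already freed of background. The software was Agilent Feature Extraction: the file headers give version 11.0.1.1, while version 9.5 stands in the submitters' processing notes. A table of log2 values that the authors also deposited differs from log2 of the scanner signal by nearly a constant on each array (column medians of -3.07 to -2.26), so that its scale and direction are known but not the statistic used for centring. It served as an alternative.

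Here the processed signal was put on the log2 scale and the 75th percentile of its array subtracted, without the 536 control spots and 97 outlier spots. No spot was saturated. Spots of 1 probe were averaged. The number of arrays limits the precision. Probes above background on at least 4 of 8 arrays were tested with limma 3.58.1 in R 4.3.3 (two-sided, calf as a block, Benjamini-Hochberg over all 10236). The pairing comes from the calf numbers and the cross-over; after removal of the diet means, the 2 arrays of a calf correlated across probes with r of 0.00897, 0.195, 0.0600 and 0.0475. An exact sign-flip test over 4 calves cannot go below 0.125, so it was not used. SD is over within-calf differences, SE is of the fit. For a gene with several probes the brightest tested one was used. The script was tested on simulated data.

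The members, the lists and the rules for naming genes were chosen with earlier results of these data known. Named were the 8 members, 20 listed pathway genes, the 2 of smallest p in each list, and the genes of most similar profile; 1 listed pathway gene is counted but not reported here. Symbols come from the array design. RefSeq (ARS-UCD2.0, names only) gave the same symbol by accession for 5 of 8 members, and the accessions of TRPM6, S100G and ATP2B4 had no match there.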

Additional observations from a re-analysis of the deposited data

Results flagged for a closer look

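In groups of 4 arrays, 1 array lay far from the other 3 in 6 of 39 groups examined, where chance gives about 1 in 20. ATP2B4 on the WP diet was one, at -3.12 log2 in calf 24 against -7.30 to -6.62 in the others, which were below background. A group was examined only if at least 1 of its arrays was above background. For ATP2B4 that was the flagged array itself, so its flag was close to fixed in advance and has no bearing on the 1 in 20. TRPM4 on WP was low in calf 25 (-3.30 against -2.76 to -2.65) and ATP2A2 on WP was high in calf 25 (-2.07 against -2.30 to -2.29). STIM1 was flagged in calf 23 on both diets, low on WP (-0.64 against -0.37 to -0.34) and high on control (-0.12 against -0.40 to -0.37). NIPA2 on WP was high in calf 23 (0.28 against -0.16 to -0.13). SLC41A1 on WP, high in calf 24, did not meet the same criterion.

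Probes against the viral E1A sequence, array controls that no comparison uses, had a median signal of 40.7 on the WP array of calf 24 and 1.36 to 1.97 on the other 7 arrays.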

How the results depend on the processing

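No alternative gave a probe past the adjusted threshold in limma, and no tested member was called under any: adjusted p ran from 0.346 to 0.994. The counts at an unadjusted p under 0.05 ran from 429 without calf 24 to 1427 with normexp. TRPV3, TRPM7 and SLC41A1 kept their direction in all alternatives run, from -1.72 to -0.10, 0.12 to 0.28 and 0.11 to 0.89. Several of these could not change it. The other filters, no replicate block, slide row as a second block and the other prior leave each difference the same by construction. The authors' value table altered them little (TRPV3 -1.10). TRPM6 turned to 0.15 with normexp and 0.17 within slide row 1, and ran from -0.34 to 0.20 with a calf left out. ATP2B1 turned to 0.22 within slide row 1 and ran from -0.086 to 0.0069 with a calf left out. Of the tested members 3 had negative differences, but 1 within slide row 1 and 1 of 3 where only probes above background on all 8 arrays were kept, which leaves out TRPV3 and TRPM6 by construction, and 1 to 3 with a calf left out. The 13 negative of 39 pathway genes became 25 with quantile and 26 with cyclic loess scaling, and 10 to 20 with a calf left out. Other causes were not tested. With no replicate block the differences were the same by construction (TRPV3 -1.10, limma adjusted p = 0.631), 785 probes had an unadjusted p under 0.05, and the block changed no call. The next brightest probe could not be tried, since each member has 1 probe. TRPV6, S100G and ATP2B4 have no difference to vary, since they were not well above background on enough arrays to be tested. For dim probes such as TRPV3 the signal over background limits the size of the difference.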

Other observations

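On the dim end of the array 2 other listed genes, chosen after their values were seen, were not measurable with these probes: S100A10, a partner that brings TRPV5 and TRPV6 to the cell surface in kidney and intestine, and SLC12A2, a sodium, potassium and chloride carrier that also accepts ammonium, were each above background on 0 of 8 arrays. AQP8, a water channel that also passes ammonia, was above background on all 8, with differences of 0.85, 0.04, 0.75 and -0.35 log2 in calves 21, 23, 24 and 25 (limma adjusted p = 0.685). GLUD1, the glutamate dehydrogenase of ammonium metabolism, gave 0.06 ± 0.13 (SE), but -0.05 with quantile scaling.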
